A study of Mus musculus with 2 samples.

Results

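B cells of mouse melanoma were examined in droplet single-cell RNA sequencing of tumour leukocytes. Of 23731 barcodes in all, 738 were selected on raw counts of unique molecular identifiers (UMIs, each standing for 1 captured transcript) of 5 genes. A B cell had at least 2 Cd79a UMIs, at least 1 Cd79b UMI, no Cd3e UMI, no Csf1r UMI and at most 2 Siglech UMIs, among barcodes with at least 300 genes and at most 10% mitochondrial UMIs. The mice were males of 8 to 12 weeks with R26CreERT2, a tamoxifen-inducible Cre recombinase expressed from the Rosa26 locus and so not restricted to B cells or leukocytes. In the iKO group both Trex1 alleles were conditional (Trex1 fl/fl), and in the control group 1 allele was conditional and the other wild type (Trex1 wt/fl), so that both groups carried Cre and received tamoxifen. B16-F10 cells, a melanoma line of C57BL/6 mice, were injected at 1000 cells into the skin of both legs, 1 mg tamoxifen was given for 3 days from day 5, and live CD45-positive cells were taken from tumours on day 14. Each genotype was run as 1 pool of 4 hashtagged samples, which served as replicates. The genotypes and the 2 pools therefore cannot be told apart. The labels do not say that each hashtag was a separate mouse, so p-values measure only the spread between these samples.

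Mature B cells carry an immunoglobulin on their surface that signals through the Cd79a and Cd79b chains. Naive B cells make the IgM and IgD forms, recirculate through blood and lymphoid organs, and present antigen on MHC class II, while activated cells can switch to other isotypes or become plasma cells. Trex1 is an exonuclease that degrades DNA in the cytosol. Loss of Trex1 is known to engage the cGAS and STING sensors and type I interferon, which acts on genes with an interferon-stimulated response element in their promoters.

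The summed B cell profiles held 151928 to 1766983 UMIs per sample, so control sample 3 was the most precisely measured. The median B cell held 4555.5 to 5006 UMIs in the iKO group and 3628 to 4012 in the controls, and these ranges did not overlap. All B cells had the hashtag of their own sample as the highest, and none shared a barcode with a B cell of another sample. The barcodes came already divided by sample within each pool. The hashtag match and the lack of sharing within a pool may follow from that division and are no separate check of it. Chi-square per degree of freedom between the B cell profiles of replicates was 1.21 to 2.33, above the value of 1 that sampling alone gives. Trex1, the targeted gene, had 0 UMIs in the 738 B cells of both genotypes, which allows a share of up to 0.407% of B cells with a UMI. In the same samples Trex1 also had 0 UMIs in T cells, and only 2 UMIs in cells with at least 2 Csf1r UMIs. It was thus hardly counted in any of these classes, and the 0 is not particular to B cells. The loss of Trex1 could therefore not be checked in the B cells, and the groups are those of the labels.

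Genes of the B lineage that the rule did not use were present in most members. Ebf1, a transcription factor of early and mature B cells, was detected in 99.3% of the 738 cells, Ighm, the IgM heavy chain, in 98.5%, and Ighd, the IgD heavy chain, in 90.5%. Ms4a1, which encodes CD20, was detected in 80.9% and the factor Pax5 in 64.4%. In the 6255 T cells of the same samples, taken by at least 2 Cd3e UMIs and no Cd79a UMI, the shares with a UMI were 1.15% for Ebf1, 29.1% for Ighm, 1.33% for Ighd, 0.512% for Ms4a1 and 0.256% for Pax5. Ighm was thus the marker found in the largest share of T cells among these 5. The source of the Ighm UMIs in T cells was not tested.

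Cells near the limits of the rule are given as a description. The 28 members with exactly 2 Cd79a UMIs held Ms4a1 in 53.6% and Ighm in 100%, and the 21 cells just outside, with 1 Cd79a UMI, held them in 38.1% and 95.2%. Another 38 cells had enough Cd79a but no Cd79b UMI, with Ms4a1 in 52.6%. Of 980 cells that passed both Cd79 limits, 128 had a Cd3e UMI, 131 a Csf1r UMI and 3 too many Siglech UMIs, with some cells counted under more than 1 of these limits. Those with Csf1r held a median of 14848 UMIs and those with Cd3e 6665.5, against 4142.5 in the members.

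B cells made up 1.11%, 0.542%, 2.68% and 3.58% of cells within the quality limits in the 4 iKO samples in order, from 43, 32, 35 and 88 B cells. In the 4 controls they made up 1.77%, 2.92%, 14.9% and 1.72%, from 35, 50, 412 and 43 B cells. Control sample 3 thus held 76.3% of all control B cells, and the other 7 samples lay between 0.542% and 3.58%. The exact 95% binomial interval, which covers counting error only, was 13.6% to 16.3% in control sample 3 and 2.88% to 4.39% in iKO sample 4, the next highest. The means were 1.98% ± 1.4 (SD, n = 4) in iKO and 5.33% ± 6.42 (SD, n = 4) in control. Without control sample 3 the control mean was 2.13% ± 0.680 (SD, n = 3). These shares follow from the rule that chose the cells and were not tested.

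The high share in control sample 3 was also seen against T cells alone. B cells were 46.4% of B and T cells together in that sample, against 5.26%, 11.1% and 15.0% in the other controls and 3.15%, 1.25%, 11.9% and 18.2% in iKO samples 1 to 4. With every cell thinned to 2000 UMIs before the rule was applied, the rule found 661 B cells, which were chosen anew and need not all be members, and the share was 13.3% in control sample 3 against 0.466% to 3.73% in the other 7. The genotype comparisons below are made over samples, of which control sample 3 is 1 of 4 controls. Its deeper summed profile gives it more weight in the edgeR fits than the other controls have.

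**Figure D1:**
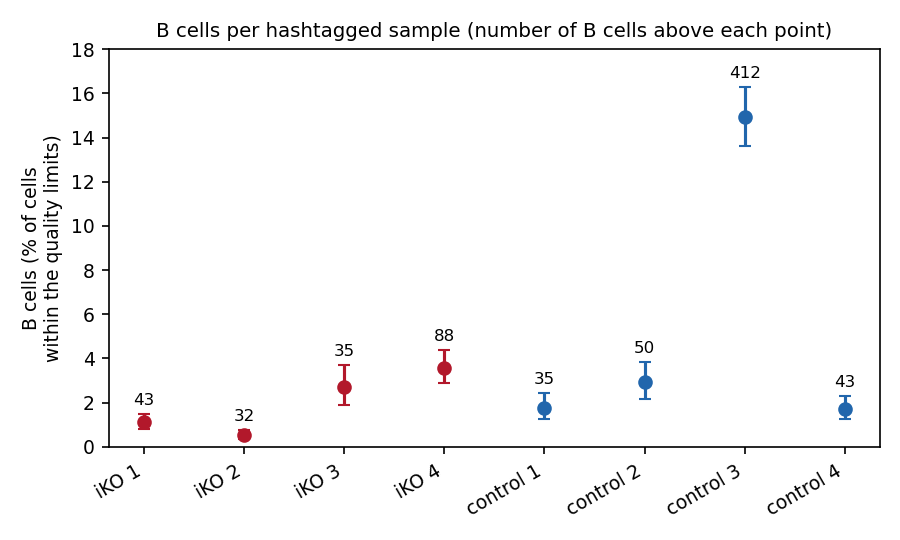
B cells as a percentage of the cells within the quality limits in each of the 4 iKO and 4 control samples, with exact 95% binomial intervals as bars. Control sample 3 lies at 14.9% and the other 7 samples lie between 0.542% and 3.58%.

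The immunoglobulin transcripts were mostly those of unswitched cells. Only 7 of the 738 cells held more UMIs of switched heavy chains than of Ighm and Ighd together, and these were 0, 2, 1 and 1 cells in the iKO group and 0, 0, 3 and 0 in the controls. Ighg2c, the IgG2c heavy chain, had 0, 8, 2 and 3 UMIs in iKO samples and 0, 0, 1 and 0 in controls, while Ighg1 had none in iKO and 1, 0, 27 and 2 in controls. Jchain, which joins secreted IgM and IgA and is abundant in plasma cells, had 6 UMIs in all. Rag1, Rag2, Igll1 and Vpreb1, genes of B cell precursors, had none.

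Both light chains and many V segments were detected. Cells in which lambda UMIs exceeded those of kappa numbered 4, 1, 1 and 5 in iKO samples and 2, 2, 33 and 5 in controls. Cells with nearly all lambda numbered 0, 0, 1 and 1 in iKO and 1, 1, 19 and 4 in controls. A mixed share, between nearly all lambda and mostly kappa, was seen in 17, 12, 6 and 30 iKO cells and 17, 28, 158 and 18 control cells. The part of light chain transcripts from other cells was not tested. V segments were detected in 371 of the 738 cells, with 612 UMIs over 139 segments. The most frequent, Iglv3, was seen in 21 cells. In control sample 3, which held most B cells, 187 cells had a V segment and the most frequent, Iglv1, was seen in 11. The reads cover transcript 3' ends, so V segments are sampled thinly.

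Between genotypes, the B cells of iKO tumours had higher levels of interferon-induced and MHC class I genes, lower Cxcr4, and no called change in the genes of B cell identity, antigen receptor signalling or MHC class II. Counts were summed per sample and tested with edgeR's quasi-likelihood test with Benjamini-Hochberg adjustment over all 2591 genes that passed its expression filter, at a threshold of 0.05. In all, 75 genes (2.89%) were called, 49 higher in iKO (1.89%) and 26 lower (1%). At an unadjusted p under 0.05 there were 323 genes (12.5%), and the 4 iKO values did not overlap the 4 control values for 200 (7.72%), in 109 of which (4.21%) iKO was higher. Of all tested genes 49.1% had a log2 fold change above 0, and the median log2 fold change was -0.0065. Levels are given as CPM (counts scaled to a fixed total of UMIs of the tested genes, with TMM scaling factors), a scale that compares samples for 1 gene and not genes with each other by length.

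Type I interferon response genes had the most called members of the lists described here. Of 60 listed genes 59 were in the files, 28 passed the expression filter, 20 were called higher and none lower. The median log2 fold change of the 28 was 1.14, and all 28 were above 0. A gene can pass the filter through the group in which it is high, so these counts describe the list and are not support for it. Over all 59 genes, filtered or not, the mean level was higher in iKO for 59, and in 39 every iKO sample exceeded every control sample. Among the 2591 tested genes, a different set, every iKO sample exceeded every control in 4.21%, and 49.1% had a log2 fold change above 0. The share over all unfiltered genes was not counted.

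The promoters of 4 of these genes are shown because they hold the letters of the element through which type I interferon acts. They are the type I interferon genes with the smallest p among those called higher whose promoter held the motif, each being the 250 bases before the gene's start in RefSeq's annotation of GRCm38.p6, printed 5' to 3' on the gene's strand. Capitals mark the motif, which is GAAA, then 2 bases of any kind, then GAAA again, searched on both strands with overlaps allowed. The windows are chr19:34583279-34583528 (plus strand) for Ifit3, chr8:71537473-71537722 (minus strand) for Bst2, chr4:156200819-156201068 (minus strand) for Isg15 and chr1:173599273-173599522 (minus strand) for Ifi213.
Ifit3: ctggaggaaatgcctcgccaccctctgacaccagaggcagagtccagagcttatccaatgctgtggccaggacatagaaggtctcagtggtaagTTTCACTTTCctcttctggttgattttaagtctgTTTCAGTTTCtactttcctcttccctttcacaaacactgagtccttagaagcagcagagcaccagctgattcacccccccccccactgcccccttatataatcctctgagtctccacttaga
Bst2: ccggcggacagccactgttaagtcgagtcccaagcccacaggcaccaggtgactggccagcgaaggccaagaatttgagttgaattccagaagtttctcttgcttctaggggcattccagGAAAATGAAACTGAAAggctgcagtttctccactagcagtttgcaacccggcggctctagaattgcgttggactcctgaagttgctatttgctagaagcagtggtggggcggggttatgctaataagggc
Isg15: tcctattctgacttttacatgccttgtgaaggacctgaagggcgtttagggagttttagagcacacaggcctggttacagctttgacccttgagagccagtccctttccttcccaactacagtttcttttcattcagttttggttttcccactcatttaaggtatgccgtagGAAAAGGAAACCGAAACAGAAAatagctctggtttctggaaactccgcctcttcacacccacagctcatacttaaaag
Ifi213: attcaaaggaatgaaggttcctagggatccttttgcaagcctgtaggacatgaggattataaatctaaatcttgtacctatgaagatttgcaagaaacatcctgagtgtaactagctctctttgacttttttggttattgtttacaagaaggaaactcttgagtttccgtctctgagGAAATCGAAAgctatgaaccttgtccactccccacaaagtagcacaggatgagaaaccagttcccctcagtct

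Ifit3 held 2 matches on the opposite strand, which begin 156 and 122 bases before the start. Bst2 held 2 overlapping matches from 130 and 124 bases before the start, Isg15 held 3 overlapping matches from 78, 72 and 66 bases, and Ifi213 held 1 from 73 bases. Over windows of 300 bases, 250 before and 50 after the start, the motif was found in 9 of the 15 type I genes called higher that had a window (60%), and in 16 of 42 genes called higher overall (38.1%). It was found in 2 of 25 genes called lower (8%), in 98 of 2096 tested genes (4.68%) and in 1079 of all 27025 genes with a window (3.99%). Of 7 type I genes that were tested and not called, 2 held it (28.6%). The 16 include the 9 type I genes, and that list names genes by their interferon response. These shares are therefore given as a description and were not tested. A match describes the letters in the window and is not a measured binding site.

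Irf7, a transcription factor that amplifies interferon production, had 236, 168, 271 and 264 CPM in the 4 iKO samples in order, against 15.2, 30.2, 32.1 and 6.37 CPM in the 4 controls. Every iKO sample lay well above every control, and the log2 fold change was 3.12 ± 0.26 (SE, edgeR adjusted p = 7.36e-07). Ifit3, whose product binds viral RNA as part of a complex, had 64.0, 160, 176 and 169 CPM in iKO and 0, 18.1, 15.7 and 6.37 CPM in control. The groups again did not overlap, with iKO sample 1 the lowest of its group, and the log2 fold change was 3.34 ± 0.36 (SE, edgeR adjusted p = 1.8e-05). Isg15, a ubiquitin-like protein, had 192, 61.0, 163 and 122 CPM in iKO and 68.2, 30.2, 32.1 and 44.6 CPM in control. Here iKO sample 2 fell below control sample 1, and the log2 fold change was 1.87 ± 0.31 (SE, edgeR adjusted p = 0.000945).

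Bst2, which tethers enveloped viruses, had 320, 267, 217 and 201 CPM in iKO and 98.5, 60.4, 75.2 and 76.4 CPM in control, without overlap (log2 fold change 1.70 ± 0.21, edgeR adjusted p = 6.48e-05). Ly6c2, a surface protein best known from monocytes and activated lymphocytes, had 472, 412, 210 and 169 CPM in iKO and 37.9, 36.2, 45.8 and 44.6 CPM in control. Its log2 fold change was 2.81 ± 0.32 (edgeR adjusted p = 2.08e-05). The level of Ly6c2 in B cells was under 1/3 of that in all other cells, as it was for Zbp1, Isg15, AW112010 and Nkg7, and the part of transcripts from other cells in these 5 was not tested.

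Ifi27l2a, a small interferon-induced membrane protein, had 1855, 3202, 1830 and 2081 CPM in iKO and 1197, 724, 637 and 611 CPM in control. Its lowest iKO value exceeded its highest control value, which was in control sample 1 (log2 fold change 1.53 ± 0.19, edgeR adjusted p = 7.56e-05). Ms4a4c, of the same membrane family as CD20, had 379, 648, 427 and 410 CPM in iKO and 250, 96.6, 120 and 108 CPM in control (log2 fold change 1.76 ± 0.24, edgeR adjusted p = 0.000113). Control sample 1 was the highest control for both genes. Xaf1, an interferon-induced antagonist of apoptosis inhibitors, rose by 1.95 ± 0.27 on the log2 scale (edgeR adjusted p = 0.000123), from 12.7 to 45.5 CPM in controls to 87.3 to 108 CPM in iKO.

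**Figure D2:**
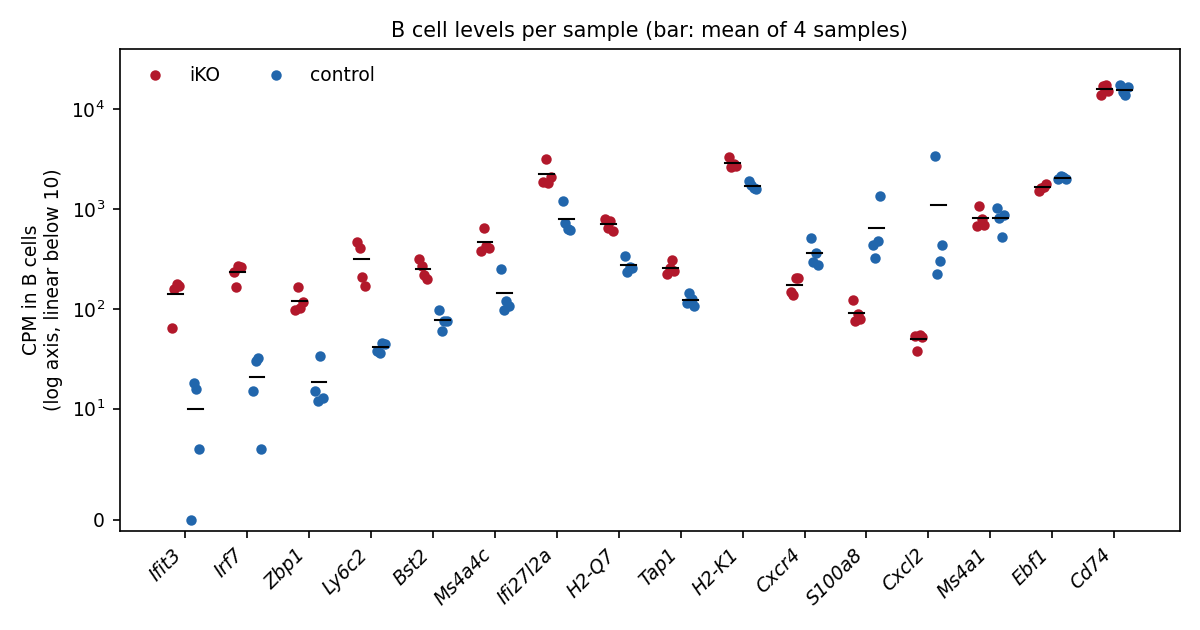
Levels of selected genes in the summed B cells of each sample, in CPM on a log axis that is linear below 10, with 1 point per sample and a bar at the mean of each genotype's 4 samples. For Irf7 the 4 iKO samples lie between 168 and 271 CPM and the 4 controls between 6.37 and 32.1 CPM, while for Cxcr4 the controls lie higher.

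Sensors of nucleic acids and a receptor chain of interferon were also examined. Zbp1, a sensor of Z-form nucleic acids, had 98.4, 168, 102 and 116 CPM in iKO and 15.2, 12.1, 34.0 and 12.7 CPM in control, without overlap (log2 fold change 2.09 ± 0.29, edgeR adjusted p = 0.000123). It was the only one called of the 9 nucleic acid sensing genes that passed the filter, of 27 in the files, whose median log2 fold change was 0.32. Sting1, the adaptor of cytosolic DNA sensing, had 15, 12, 13 and 25 UMIs in iKO samples and 12, 18, 98 and 15 in controls, and Cgas had 8 UMIs over all B cells. Ifnar1, a chain of the type I interferon receptor, had a log2 fold change of -0.54 ± 0.24 (edgeR adjusted p = 0.341).

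The Ifi200 family and the Slfn genes gave 2 further examples. Ifi213, of a family of DNA-binding proteins, had 94.9 to 192 CPM in iKO and 25.5 to 90.9 CPM in control (log2 fold change 1.77 ± 0.31, edgeR adjusted p = 0.00192). This call was lost without control sample 3 (edgeR adjusted p = 0.0674). Slfn5, of the Schlafen family, had 231, 206, 183 and 188 CPM in iKO and 136, 84.5, 53.6 and 12.7 CPM in control (log2 fold change 1.68 ± 0.30, edgeR adjusted p = 0.00219). Ifi203, Ifi213, Ifi214 and Mndal have similar sequences, as have Ly6a and Ly6c2, so that reads may be split among them.

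Not every interferon-induced gene was higher to a measurable degree. Ly6e, an interferon-induced restriction factor that B cells also make constitutively, had a log2 fold change of 0.07 ± 0.10 (edgeR adjusted p = 0.841), with mean levels of 2385 CPM in iKO and 2284 CPM in control. Irf8, a factor of B cells and myeloid cells, had 297 to 384 CPM in iKO and 229 to 293 CPM in control, which did not overlap but missed the threshold (log2 fold change 0.48, edgeR adjusted p = 0.140).

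The MHC class I pathway, which shows peptides from inside the cell to CD8 T cells, was called at several steps. Of 37 genes of the interferon gamma response and MHC class I list, 17 passed the filter, 11 were called higher and none lower, with a median log2 fold change of 0.75 and all 17 above 0. Over all 37 genes the mean was higher in iKO for 33, and in 12 every iKO sample exceeded every control. The share over all unfiltered genes was not counted, and among the 2591 tested genes such a separation was seen in 4.21%. All 11 called genes belong to MHC class I molecules, peptide transport or the proteasome.

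Among the class I heavy chains, H2-K1 had 3356, 2653, 2840 and 2682 CPM in iKO and 1910, 1763, 1631 and 1585 CPM in control (log2 fold change 0.75 ± 0.10, edgeR adjusted p = 0.000103). H2-D1 had 2426 to 3253 CPM in iKO and 1750 to 2008 CPM in control (log2 fold change 0.52 ± 0.10, edgeR adjusted p = 0.00537). The non-classical H2-Q7 changed more, with 797, 640, 766 and 606 CPM in iKO and 341, 235, 262 and 255 CPM in control (log2 fold change 1.37 ± 0.15, edgeR adjusted p = 2.08e-05). In none of the 3 did the groups overlap. H2-Q4, H2-Q6 and H2-Q7 are close copies of each other, so the split of reads between them is uncertain.

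Called genes at the other steps were B2m, Tap1, Psmb8 and Psme1, while Tap2, Tapbp, Psmb9, Psmb10 and Psme2 did not pass, with log2 fold changes of 0.27, 0.44, 0.76, 0.75 and 0.73 (edgeR adjusted p = 0.687, 0.314, 0.0514, 0.0904 and 0.0904). B2m, the light chain shared by class I molecules, had 2987, 2173, 2088 and 2092 CPM in iKO and 1743, 1690, 1682 and 1585 CPM in control (log2 fold change 0.48 ± 0.11, edgeR adjusted p = 0.0196). Tap1, a subunit of the peptide transporter, had 226, 259, 312 and 238 CPM in iKO and 114, 145, 127 and 108 CPM in control (log2 fold change 1.03 ± 0.18, edgeR adjusted p = 0.00156). Psmb8, an immunoproteasome subunit, had 576 to 869 CPM in iKO and 369 to 424 CPM in control (log2 fold change 0.78 ± 0.15, edgeR adjusted p = 0.00561). The Psmb8 call was lost when cells were thinned to 2000 UMIs (edgeR adjusted p = 0.229).

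MHC class II genes, through which B cells present antigen to CD4 T cells, gave no call in either direction among 12 tested of 14. Their log2 fold changes ran from -0.30 to 0.35 with a median of 0.12. Cd74, the invariant chain of class II, had a log2 fold change of 0.01 ± 0.08 (edgeR adjusted p = 0.998), and H2-Ab1 0.14 ± 0.10 (edgeR adjusted p = 0.600). Summed over the list, class II genes took 23057 to 28045 CPM of all UMIs in iKO and 22795 to 27671 CPM in control, which overlapped almost fully, whereas the type I list took 9874 to 12435 CPM in iKO and 4715 to 6938 CPM in control.

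**Figure D3:**
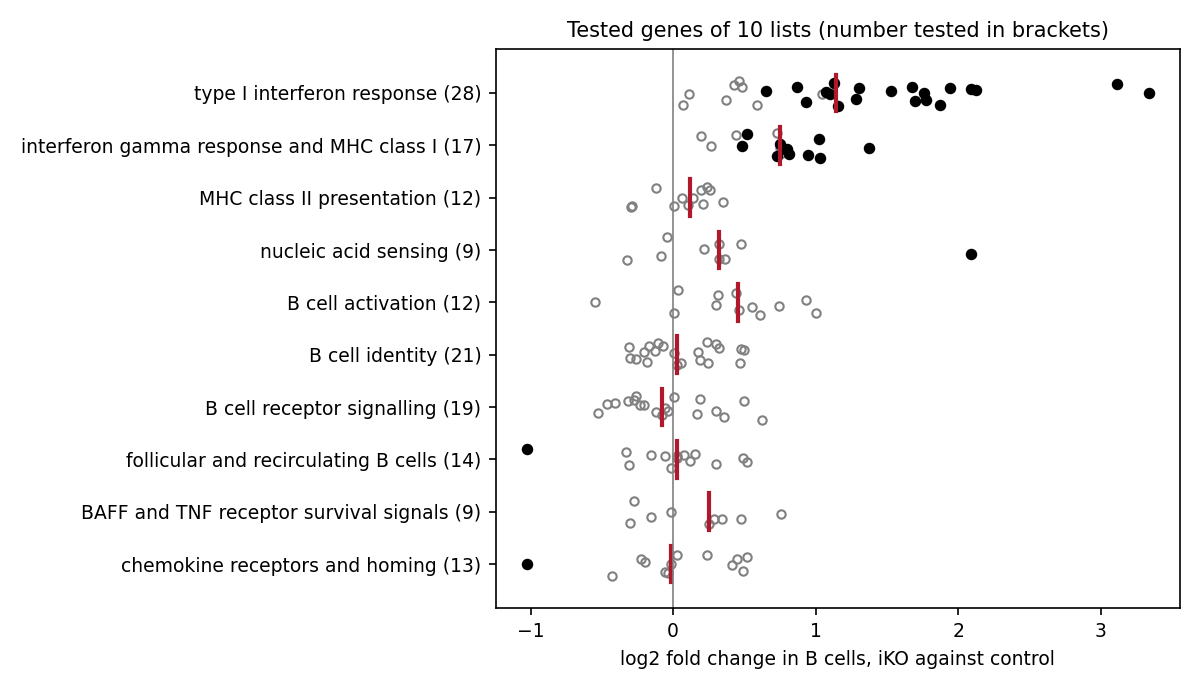
Log2 fold change in B cells, iKO against control, of the tested genes in each gene list, with 1 point per gene, filled where the edgeR adjusted p was under 0.05, and a bar at the median of each list. The medians of the type I interferon and MHC class I lists lie at 1.14 and 0.75, and those of MHC class II and B cell identity at 0.12 and 0.03.

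Type I list genes were also counted in single B cells. With each cell thinned to 2000 UMIs, the median B cell held 9, 12, 9 and 9 genes of the type I list in the 4 iKO samples, against 7, 6, 6 and 5 in the 4 controls. At least 10 list genes were found in 46.5%, 80.6%, 48.5% and 48.9% of iKO B cells and in 11.4%, 12.2%, 9.83% and 6.98% of control B cells. The groups did not overlap in either measure. All iKO B cells held at least 4 list genes, 1 cell of control sample 3 held none, and iKO samples 3 and 4 had cells with up to 32 and 35. Thinning left 9 cells out because they held fewer than 2000 UMIs.

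**Figure D4:**
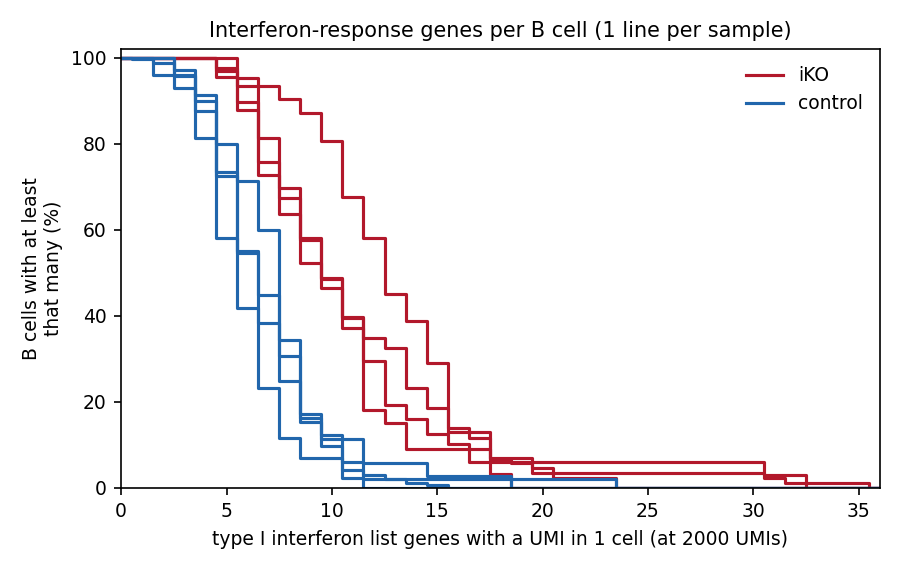
Number of type I interferon list genes detected per B cell after thinning to 2000 UMIs, as the percentage of a sample's B cells (y axis) with at least the number of list genes on the x axis, with 1 line per sample. At 10 genes the iKO lines lie between 46.5% and 80.6% and the control lines between 6.98% and 12.2%.

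Shares of cells in 8 states were compared over samples with a two-sided exact permutation test, for which the smallest p with 4 against 4 samples is 0.0286. B cells with a UMI of Isg15, Ifit1, Ifit3 or Irf7 were 46.5%, 48.4%, 42.4% and 36.4% in the iKO samples against 28.6%, 18.4%, 12.3% and 4.65% in the controls after thinning. The groups did not overlap, with means of 43.4% ± 5.32 and 16.0% ± 10.1 (SD, n = 4 each, exact permutation p = 0.0286, 0.114 adjusted over the 8 states). B cells with an Ighd UMI were 76.7%, 67.7%, 78.8% and 63.6% in the iKO samples against 82.9%, 85.7%, 79.4% and 86.0% in control, with means of 71.7% ± 7.22 and 83.5% ± 3.11 (SD, n = 4 each, exact permutation p = 0.0286, adjusted 0.114). Thinned to 1000 UMIs, the mean Ighd shares were 51.6% and 55.6% and the groups overlapped (exact permutation p = 0.286). In T cells the share with an Ighd UMI was 0% to 1.68%. The share of T cells in the interferon state was 41.8% to 46.1% in iKO and 12.6% to 20.0% in control. T cells with Cd69 were 15.5% to 26.6% and those with Mki67 or Top2a 14.3% to 39.0% over the 8 samples. Without thinning the mean Ighd shares reached 87.2% in iKO and 94.9% in control samples and overlapped (exact permutation p = 0.114), and the summed level of Ighd had a log2 fold change of -0.30 ± 0.12 (edgeR adjusted p = 0.25).

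The other 6 states overlapped between the groups, and no state had an adjusted p under 0.05. A state at the smallest possible exact permutation p of 0.0286 had an adjusted p of 0.114 here. The adjusted test could therefore not call a state unless more states reached that smallest p. B cells with Mki67 or Top2a, genes of dividing cells, were 8.08% ± 3.25 in iKO and 3.56% ± 1.72 in control (SD, n = 4 each, exact permutation p = 0.0571, adjusted 0.152). Cd69, an early activation marker that also holds lymphocytes in tissue, was detected in 26.1% ± 3.45 and 19.4% ± 8.10 (exact permutation adjusted p = 0.457). Fcer2a, which encodes CD23 of follicular B cells, was detected in 36.8% ± 9.01 and 32.6% ± 12.6, and Cr2, which encodes CD21, in 14.1% ± 1.96 and 15.7% ± 2.89 (exact permutation adjusted p = 0.543 for each). Switched cells made up 2.19% ± 3.04 and 0.184% ± 0.369, and cells with more lambda than kappa UMIs 5.48% ± 2.90 and 8.40% ± 3.16 (exact permutation adjusted p = 0.543 and 0.503).

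Genes that define B cells gave no call. Of 21 identity genes, all tested, none was called and the median log2 fold change was 0.03, with 12 above 0. The level of Ms4a1 was 812 ± 188 CPM in iKO against 810 ± 209 CPM in control samples (SD, n = 4 per group, log2 fold change 0.03 ± 0.19, edgeR adjusted p = 0.998). Ebf1 was lower in every iKO sample than in every control, at 1663 ± 105 CPM and 2059 ± 72.9 CPM (SD, n = 4 each), but missed the threshold (log2 fold change -0.31 ± 0.09, edgeR adjusted p = 0.0841). Igkc, the kappa constant region, had a log2 fold change of 0.36 ± 0.11 (edgeR adjusted p = 0.0871) and Ighm -0.21 ± 0.10 (edgeR adjusted p = 0.404).

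The antigen receptor and activation lists likewise held no called gene. Of 22 receptor signalling genes 19 were tested, with a median of -0.08. Syk, a kinase recruited by Cd79a and Cd79b, had 271, 328, 258 and 264 CPM in iKO and 333, 513, 413 and 331 CPM in control, without overlap (log2 fold change -0.53, edgeR adjusted p = 0.107). Of 22 activation genes 12 were tested, with a median of 0.45 and 11 above 0, while 49.1% of all tested genes were above 0. Over all 22 activation genes, tested or not, the mean level was higher in iKO for 18 and lower for 4. Myc, which drives growth of activated B cells, had 103, 160, 244 and 161 CPM in iKO and 114, 54.3, 79.8 and 115 CPM in control (log2 fold change 0.93 ± 0.25, edgeR adjusted p = 0.0526). Cd83, an activation marker of B cells and dendritic cells, had a log2 fold change of 0.74 ± 0.22 (edgeR adjusted p = 0.0904).

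Survival and tissue position lists were similar. None of 9 tested genes for BAFF and TNF receptor signals was called (median 0.25), nor any of 5 tested B cell cytokine genes (median 0.16), 5 tested p53 and DNA damage genes (median -0.20), 4 tested marginal zone and B1 genes (median -0.04) or 4 tested transitional genes (median -0.21). Germinal centre and plasma cell lists had 2 tested genes each and no call. Of 13 chemokine receptor and homing genes, Cxcr4 alone was called. Ccr7, which guides lymphocytes into lymph nodes, had 738, 412, 366 and 420 CPM in iKO and 311, 332, 388 and 299 CPM in control (log2 fold change 0.52 ± 0.19, edgeR adjusted p = 0.221), with iKO sample 1 far above the others. Cxcr5 and S1pr1 had log2 fold changes of -0.01 and -0.06.

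Cxcr4, the receptor for the chemokine Cxcl12, had 148, 137, 203 and 204 CPM in iKO and 515, 296, 364 and 274 CPM in control. All iKO samples lay below all controls, and the log2 fold change was -1.03 ± 0.20 (SE, edgeR adjusted p = 0.00537). In T cells and Csf1r cells Cxcr4 had -1.13 ± 0.46 and -0.51 ± 0.15 (SE, edgeR adjusted p = 0.182 and 0.0545). Its iKO effect in B cells was not called different from that in either. Elmo1, which links receptors to Rac activation in migrating cells, had 49.2, 99.1, 81.3 and 76.7 CPM in iKO and 167, 205, 160 and 115 CPM in control (log2 fold change -1.11 ± 0.23, edgeR adjusted p = 0.00787). Klf3, a repressor that affects B cell subsets, fell by 0.77 on the log2 scale (edgeR adjusted p = 0.0456). These belong to 14 of the 26 lower genes whose level in B cells was not under 1/3 of that in other cells. Of the dissociation stress list, whose members respond to tissue digestion, 18 were tested, Ier3 alone was called and the median was 0.02.

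The other 12 lower genes were below 1/3 of their level in other cells, among them several genes of myeloid cells. S100a8, a calcium-binding protein of neutrophils, had 123, 76.2, 88.1 and 79.3 CPM in iKO B cells and 440, 326, 477 and 1349 CPM in control B cells (log2 fold change -2.79 ± 0.37, edgeR adjusted p = 0.000103). S100a9, its partner, had 172, 114, 136 and 140 CPM and 720, 429, 672 and 1318 CPM (log2 fold change -2.44 ± 0.27, edgeR adjusted p = 1.8e-05). Cxcl2, a neutrophil-attracting chemokine, had 54.1, 38.1, 54.2 and 52.9 CPM in iKO and 3418, 223, 300 and 433 CPM in control, with control sample 1 far above the rest (log2 fold change -4.33 ± 0.77, edgeR adjusted p = 0.00219). Without control sample 1 the log2 fold change of Cxcl2 was -2.61, and without the cells of high doublet score it was -2.48, and both stayed called. Il1b had 67.8 to 145 CPM in iKO and 166 to 758 CPM in control, and lost its call under a looser rule (log2 fold change -0.96, edgeR adjusted p = 0.463) and under DESeq2 (adjusted p = 0.066).

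Summed markers of other cells are given beside these genes. The 8 neutrophil markers, none of them at 0, summed to 180 to 302 CPM of all UMIs in iKO B cells and 688 to 2576 CPM in control B cells, and over all cells of the samples to 808 to 7475 CPM and 5097 to 12649 CPM. Monocyte and macrophage markers, 10 genes, summed to 935 to 1633 CPM and 1194 to 1449 CPM in B cells. T cell markers, 10 genes, summed to 332 to 366 CPM and 158 to 265 CPM, with Cd3d at 12.9 to 64.6 CPM and 22.1 to 59.2 CPM. The neutrophil sum was lower in every iKO sample, the T cell sum was higher, and the monocyte and macrophage sums overlapped. Dendritic cell markers, 8 genes, summed to 335 to 1047 CPM and 271 to 357 CPM, mostly through Ccr7, which 64.8% of the B cells expressed, and 90 of the 116 Fscn1 UMIs came from 1 cell. The 1047 CPM was in iKO sample 1, where Ccr7 was also highest, and the other iKO samples had 335 to 410 CPM. Cd209a was at 0 in iKO B cells. Plasmacytoid dendritic cell markers, 8 genes with Cox6a2 at 0, summed to 460 to 509 CPM and 287 to 350 CPM. Bst2 alone of these had every iKO sample above every control, and 5 of the 7 detected had the lower mean in iKO. Melanoma markers, 7 genes, summed to 19.3 to 46.2 CPM and 0 to 11.3 CPM. The part of these transcripts in the B cell comparison was not tested. With the 104 genes under 1/3 of their level in other cells left out, 53 of 2487 genes were called, 42 higher and 11 lower.

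Several called genes lie outside the lists. Plac8, a cysteine-rich protein of leukocytes, rose by 0.57 (edgeR adjusted p = 0.0254), Cybb, a subunit of the phagocyte oxidase that B cells also express, by 0.74 (edgeR adjusted p = 0.0224), and Grap, an adaptor in lymphocyte receptor signalling, by 0.78 on the log2 scale (edgeR adjusted p = 0.010). Fth1, the ferritin heavy chain, fell by 0.55 (edgeR adjusted p = 0.00588). Rps10, Rps27rt, Rpl35 and Gm10076 were called too, but ribosomal protein genes have near-identical copies and their counts are uncertain. These genes were chosen after their values were seen.

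The iKO effect in B cells was compared with that in T cells and in 7292 cells with at least 2 Csf1r UMIs, a receptor of monocytes and macrophages, by an interaction term in edgeR with the sample as a block. Against T cells, 12 of 10231 genes (0.117%) differed, 8 with the higher effect in B cells (0.0782%) and 4 with the lower (0.0391%). Against Csf1r cells, 128 of 10769 (1.19%) differed, 90 higher (0.836%) and 38 lower (0.353%). The count against T cells rested on single samples: it was 3 without iKO sample 2, 5 without control sample 2 and 5 without control sample 3, and it was 22, 36, 42 and 58 without control sample 1 and iKO samples 1, 3 and 4. The count against Csf1r cells was 39 without iKO sample 2, 77 without iKO sample 3 and 85 without iKO sample 1.

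For the interferon genes no difference from T cells was called among 59 type I genes, with a median difference of 0.12 on the log2 scale. The log2 fold changes of Irf7 were 3.12 in B cells, 2.10 in T cells and 3.01 in Csf1r cells, and those of Ifit3 were 3.34, 2.17 and 2.72. Isg15 had 1.87, 2.31 and 2.52, and H2-K1 had 0.75, 0.40 and 0.89. For Irf7 the B minus T difference was 1.06 ± 0.33 (SE, edgeR adjusted p = 0.346), so a difference of this size was not called. Against Csf1r cells 2 of the 59 had the lower effect in B cells, as had 0.353% of all 10769 genes. Ly6e had 0.07 in B cells and 1.19 in Csf1r cells (difference -1.09 ± 0.16, edgeR adjusted p = 0.00024), and Helz2, an interferon-induced helicase, 0.11 and 1.76 (difference -1.54 ± 0.32, edgeR adjusted p = 0.0081).

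Ly6c2 differed from T cells in the other direction, with log2 fold changes of 2.81 in B cells and 1.34 in T cells (difference 1.27 ± 0.25, edgeR adjusted p = 0.0223). In Csf1r cells Ly6c2 had 2.76, and its difference from B cells was not called (0.13 ± 0.24, edgeR adjusted p = 0.924). Cd83 differed by 2.01, at 0.74 in B cells and -1.13 in T cells (edgeR adjusted p = 0.00163). Apoe, a lipid carrier made by macrophages, was 591 CPM in B cells of both genotypes and differed by 2.11 ± 0.22 (edgeR adjusted p = 3.4e-07), since T cells had 14.9 to 29.6 CPM of all UMIs in iKO and 86.4 to 115 CPM in control. Igkc, Ms4a1 and Ebf1 also differed, at T cell levels of 27.1 to 47.5 CPM in iKO and 49.7 to 74.4 CPM in control for Igkc, 0 to 0.494 and 0.813 to 2.00 CPM for Ms4a1, and 0.402 to 1.38 and 1.31 to 2.79 CPM for Ebf1. T cells are not known to make these B cell transcripts, and the part of B cell transcripts in the T cell profiles was not tested.

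Several MHC class II genes had different iKO effects in B cells and Csf1r cells. Of 14 class II genes, 7 had a higher iKO effect in B cells and none a lower one, with a median difference of 0.60. Over all 10769 genes, 0.836% had a higher effect and 0.353% a lower one, and that count varied on leaving out single samples. H2-DMb2, a chain of the peptide-loading complex, had log2 fold changes of 0.35 in B cells and -1.58 in Csf1r cells (difference 2.08 ± 0.33, edgeR adjusted p = 0.000603). H2-Ob and H2-Oa, chains of an inhibitor of that complex, differed by 1.52 each, H2-Eb1 by 0.88, H2-Aa by 0.72, H2-Ab1 by 0.66 and Cd74 by 0.53 (edgeR adjusted p up to 0.0261). H2-Ob and H2-Oa were low in Csf1r cells, with means of 4.2 and 9.65 CPM for H2-Ob and 6.63 and 17.6 CPM for H2-Oa in iKO and control. B cell transcripts in Csf1r cells did not all move 1 way. Igkc had 2.56 to 3.33 CPM of all UMIs in iKO and 12.4 to 16.2 CPM in control. Ebf1 had 0.27 to 0.69 and 0.92 to 3.74 CPM, and Ms4a1, Ighd and Pax5 also had the lower mean in iKO. Ighm was higher in iKO instead, at 54.6 to 68.7 against 32.8 to 52.5 CPM. The means of Cd22 were 3.28 CPM in iKO and 2.48 CPM in control, and those of Cd79b 8.36 and 8.57 CPM. The part of B cell transcripts in the Csf1r cell profiles was not tested. None of the 14 differed from T cells. Among the follicular genes Satb1, Gpr183, Ccr7 and Btg1 had the higher effect in B cells against Csf1r cells, while Myc and Cd83 of the activation list differed by 1.20 and 0.96 (edgeR adjusted p = 0.0216 and 0.0181).

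**Figure D5:**
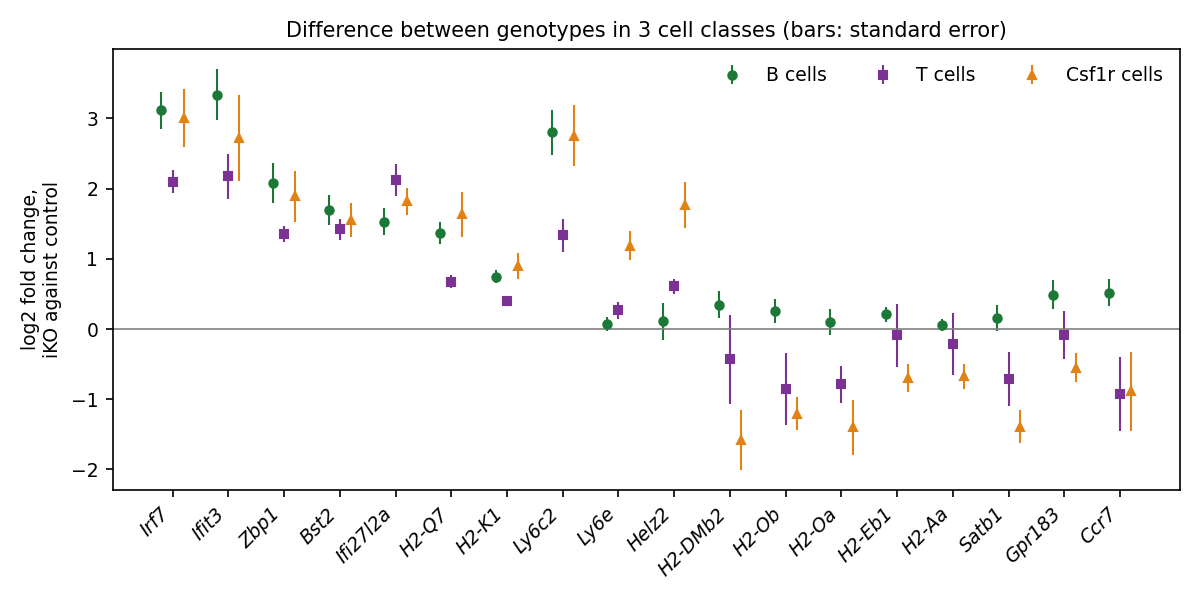
Log2 fold change of iKO against control with its standard error for selected genes in B cells, T cells and Csf1r cells, each from its own edgeR fit. Irf7 lies at 3.12, 2.10 and 3.01 in the 3 kinds of cell, while H2-DMb2 lies at 0.35 in B cells and -1.58 in Csf1r cells.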

How the data were processed

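Cells of 8 hashtagged samples, 4 per genotype, had been run as 1 droplet pool per genotype. The deposited values are raw UMI counts for each gene in each barcode, made by the authors with Cell Ranger 7.1.0 on GRCm39, per the submitters' processing notes. For the intron setting and the assignment of barcodes to hashtags, no description was used here. Hashtags and 92 spike-in features, which had 0 UMIs, were left out, leaving 32432 genes. Barcodes with at least 300 genes and at most 10% mitochondrial UMIs (22490) entered the rule for B cells. Doublet scores (Scrublet in scanpy 1.11.5) over 0.25 were found in 11 B cells, which were kept and left out in an alternative.

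B cell counts were summed per sample. edgeR 4.0.16 in R 4.3.3 gave TMM factors, the filterByExpr filter, the quasi-likelihood test and Benjamini-Hochberg adjustment within each comparison. A standard error is the log2 fold change divided by the square root of F. CPM of single genes in B cells uses the UMIs of tested genes and TMM factors, while sums over lists and levels in T cells use all UMIs. On simulated counts with 200 genes changed 4-fold, the B cell comparison recovered 85% with 2.86% false among the calls. The interactions recovered 62.5% each, with 8.09% false calls for T cells and 4.58% for Csf1r cells. Changes smaller than 4-fold, such as those of the MHC class I genes, were not simulated, so their recovery is not known. State shares used cells thinned to 2000 UMIs and exact permutation tests (scipy 1.17.1). 1 UMI corresponds to 0.566 to 6.58 CPM of all UMIs, depending on the sample. Intervals and limits for a count of 0 (3 counts) cover counting error only.

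Genes named were, by rule, the 12 largest rises and 12 largest falls among called genes whose groups did not overlap and whose mean was at least 20 CPM, up to 5 tested members of each list by p with its called members, the immunoglobulin constant regions, and up to 6 genes in each direction of each interaction. Other genes named were chosen after their values were seen. Some genes are not reported here. Alternatives were other size factors, DESeq2 1.42.0, no expression filter, thinning, a replicate block, other membership and quality limits, no immunoglobulin genes and leaving out each sample. The members and gene lists were chosen with earlier results of these data known. Of the type I interferon list, 1 gene, Rigi, was not matched. Promoter windows came from RefSeq's annotation of GRCm38.p6, matched by symbol, and no coordinates of the deposited files' build were used.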

Additional observations from a re-analysis of the deposited data

Results flagged for a closer look

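In 25 cases over 220 groups of 4 samples, 1 sample lay far from the other 3 of its group (Dixon's criterion, which chance meets in about 1 group in 20). Control sample 3 stood apart in the share of B cells among cells within the limits (14.9%, the others 1.72% to 2.92%). Control sample 1 had the highest share of B cells with a Cr2 UMI (20.0%, the others 14.0% to 14.5%), and control sample 3 was the only control with switched B cells after thinning (0.737%).

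Among interferon and class I genes, Ifit3 was lowest in iKO sample 1 (64.0 CPM), Zbp1 highest in control sample 3 (34.0 CPM), Ms4a4c highest in control sample 1 (250.1 CPM) and Psmb8 lowest in control sample 4 (369 CPM). Samhd1 was lowest in control sample 3 (383 CPM). Among myeloid genes found in B cells, Cxcl2 was highest in control sample 1 (3418 CPM) and lowest in iKO sample 2 (38.1 CPM), and S100a8 highest in control sample 4 (1349 CPM). Ccl6 was highest in control sample 3 (179.9 CPM), Pf4 in iKO sample 4 (31.7 CPM), Ier3 and Spp1 in control sample 1 (584 and 387 CPM), and Lyz2 and Cd14 in iKO sample 1 (989 and 246 CPM).

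In iKO sample 1 B cells Ccr7 and Bcl2a1d were highest too (738 and 251 CPM). Control sample 1 had the lowest Nfkb1 and Mdm2 (68.2 and 37.9 CPM) and the highest H2-Ob and Il16 (682 and 189 CPM). In iKO sample 3 Hmgb2 was highest (583 CPM) and Il16 lowest (108 CPM).

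The iKO effect differed between B cells and T cells, by the interaction test in edgeR, for 10 named genes. The log2 effect in B cells minus that in T cells was 2.11 for Apoe, 1.13 for Igkc, 2.01 for Cd83, 2.91 for Ms4a1, 1.27 for Ly6c2 and 1.58 for Ebf1. It was -1.43 for S100a6, -1.52 for Ctsd, -1.84 for H2ac8 and -1.12 for S100a4. Against Csf1r cells the difference was 2.73 for Igkc, 0.67 for Rps15a, 1.57 for Apoe, 2.08 for H2-DMb2, 0.64 for Rps7 and 0.60 for Rpl32. It was -1.09 for Ly6e, -2.12 for S100a8, -0.81 for Ighm, -1.59 for S100a9, -1.25 for Etnk1 and -1.46 for Il1b.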

How the results depend on the processing

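The count of 75 genes called in B cells was 186 (110 higher, 76 lower) without the expression filter and 43 (26 higher, 17 lower) with cells thinned to 2000 UMIs, where 1122 genes were tested, 44 of the 75 among them, and 32 were called in both. Leaving out 1 sample gave 51 (without control sample 3) to 90 (without iKO sample 1), and the other alternatives 53 to 79. The replicate block gave 65 genes, 59 of them shared, but replicate numbers do not pair the samples: deviations of same-numbered samples correlated at 0.024, 0.078, -0.020 and -0.013. The difference from T cells (12 genes) was 68 without the filter, 19 after thinning and 3 to 58 on leaving out 1 sample. The difference from Csf1r cells (128 genes) was 47 after thinning and 39 to 140 on leaving out 1 sample. The causes were not tested.

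Among the values for named genes in B cells, 1710 kept their direction and side of the threshold, 28 lost and 25 gained the call. Lyz2 reversed to -0.66 without iKO sample 1 and ran up to 0.21 without iKO sample 3. Calls lost in at least 1 alternative were Ier3, Ifi213, Il1b, Mt1, Psmb8, Nkg7 (9 of 17), Spp1 (5 of 17) and Tgfbi (8 of 15). The share with a Cr2 UMI reversed without thinning (difference 2.77 percentage points), and that with an Fcer2a UMI without control sample 2 (-0.47). On leaving out 1 sample the differences in percentage points were -14.1 to -9.07 for Ighd, -0.47 to 9.60 for Fcer2a, -2.21 to -0.109 for Cr2, 4.26 to 10.3 for Cd69, 3.17 to 5.66 for Mki67 or Top2a, 23.7 to 31.7 for the interferon genes, 0.591 to 2.74 for switched and -4.37 to -1.85 for lambda cells. The number of B cells found was 550 under the stricter and 759 under the looser rule. Shares expected over all draws of 2000 UMIs, an alternative chosen after seeing the data, gave 69.3% and 81.0% for Ighd (exact permutation p = 0.0286, adjusted 0.0857). With 32 to 43 B cells in 5 of 8 samples, genes of low level were not detectable at this depth.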
